A study of Mus musculus with 24 samples.

Results

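The comparison described here set ID8 cells that received 1000 IU/ml of recombinant mouse interferon (IFN) epsilon for 3 h against untreated ID8 cells, which received the buffer (PBS) alone. The members were chosen by their labels: 3 treated and 3 untreated biological samples, which used 9 of the 24 arrays of the series because each untreated sample was hybridised to 2 arrays. The samples carry replicate numbers 1 to 3, and the study's design text says that the biological replicates were made on separate dates, so a treated sample and the untreated sample of the same number form a pair and are called date 1, 2 or 3. ID8 is an established mouse ovarian cancer cell line derived from surface epithelium, and all groups were plated at 150000 cells per well 24 h before treatment in medium with 4% serum. The series also holds IFN epsilon at 10 and 100 IU/ml and IFN beta at 10, 100 and 1000 IU/ml. They gave a shared estimate of spread in the fit and, for IFN epsilon at 100 IU/ml and IFN beta at 1000 IU/ml, direct comparisons. The question was which transcripts IFN epsilon changes in tumour cells directly. All samples come from 1 cell line in culture. The fit takes out the level shared by a date, so the p-values measure how group differences vary between dates of this line.

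Type I interferons bind a shared receptor of the subunits Ifnar1 and Ifnar2, and the attached kinases Jak1 and Tyk2 phosphorylate Stat proteins. Phosphorylated Stat proteins join Irf9 in a complex that binds the interferon-stimulated response element (ISRE) in promoters, while pairs of Stat proteins alone bind the gamma-activated site (GAS). The genes reached in this way encode antiviral effectors, antigen presentation machinery, chemokines, cell death ligands and brakes on the pathway itself. Unlike most type I interferons, IFN epsilon is made without infection, in reproductive tract epithelium, under the control of hormones.

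Signal is given throughout as scaled signal, in which the 75th percentile of each array's processed signal is set to 1000. It compares samples for 1 gene and does not compare genes with each other, since probes differ in brightness. Over the 22 arrays used, the 75th percentile lay between 643.5 and 1221.5 before scaling. The treated array of date 3 stood apart: its median probe was at 6.99% of its 75th percentile, against 2.91 to 4.94% on the other arrays, and 58.8% of its probes were well above background, against 50.1 to 56.3%. In dim genes, 4 to 6 log2 units below the 75th percentile, the treated sample exceeded its untreated partner by a median of 0.66 on date 3, against 0.04 and -0.11 on dates 1 and 2. The labelled cell type was checked by its markers: 8 of 9 markers of ovarian surface epithelium and mesothelium were tested (Krt7, Krt8, Krt18, Krt19, Msln, Wt1, Upk1b and Upk3b), all were well above background on all 9 arrays, and none was called. Of 7 fibroblast markers, 6 were tested, 5 were well above background on all 9 arrays and none was called. Among them Dcn read 88710, 92780 and 72520 and Col1a1 36830, 38460 and 35870 in untreated samples, so the markers do not single out epithelium. Of 18 leukocyte markers, 7 were tested and none was called. Cd3e, Cd4, Itgam, Cd14, Csf1r and Cd68 were well above background on all 9 arrays, with Itgam at 2329, 2347 and 2372 in untreated samples, whereas Ptprc, Cd3g and Cd8a did not pass the filter on dim probes. The summed scaled signal of the 7 was 4240 to 4610 in untreated and 3780 to 4770 in treated samples.

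After 3 h of IFN epsilon the rises were far larger than the falls. Of 14425 genes tested with limma, 653 rose (4.53%) and 517 fell (3.58%) at a Benjamini-Hochberg adjusted p under 0.05. Of the rises, 375 were at least 2-fold (2.6% of genes tested) and 112 at least 8-fold, while 138 lay at 1.5 to 2-fold and 140 below that. Of the falls, 2 were at least 2-fold (0.0139%), Trem1 and Nrarp, and 477 were smaller than 1.5-fold. The median rise was 1.23 and the median fall -0.36 on the log2 scale, a fall of 1.28-fold, beside a median of -0.052 over all genes. All 3 treated samples lay above all 3 untreated samples in 524 of the 653 rises (6.19% of all genes tested did so) and below them in 233 of the 517 falls (6.54%). The other falls overlapped between groups. Only 10 of the 517 falls were also called without the pairing by date, so most falls with and without overlap were called through it. All rises and all falls had the same sign in all 3 pairs, as did 15.6% of tested genes upwards and 33.2% downwards.

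**Figure D1:**
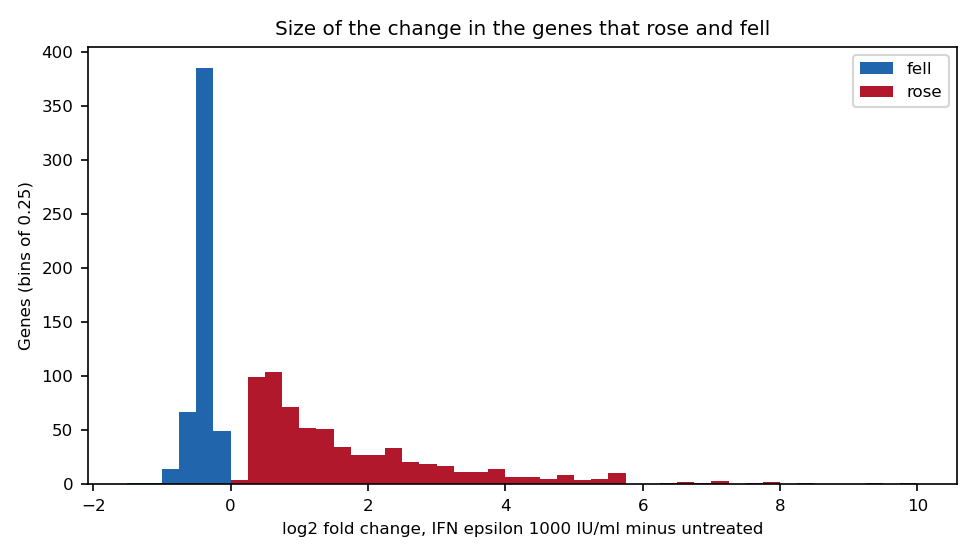
Histogram of the log2 fold change (x axis, IFN epsilon at 1000 IU/ml minus untreated, bins of 0.25) for the 653 genes that rose (red) and the 517 that fell (blue), with the number of genes on the y axis. Falls are packed near their median of -0.36, whereas rises have a median of 1.23 and a long tail beyond 8-fold.

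The balance of the 2 directions depended on the fit more than the presence of large rises did. Without the replicate block 323 genes rose (2.24%) and 10 fell (0.0693%), all of them among the genes called with the block, and 296 rose and 44 fell when arrays were scaled to their median, a scaling that moved every gene by the same amount and the median of all genes to -0.467. Cyclic loess normalization, chosen after the data were seen, gave 703 rises and 267 falls. Leaving out the untreated sample of date 3 left 387 rises.

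The 12 largest rises among genes measured on both sides were Ifit3b, Ifit3, Rsad2, Cmpk2, Gbp5, Ifit1, Phf11b, Gbp4, Usp18, Slfn8, Zbp1 and Oas2, with changes from 323-fold down to 48.6-fold. In Ifit3, an antiviral tetratricopeptide repeat protein of the Ifit family, the untreated samples of dates 1 to 3 had scaled signals of 245, 167 and 974, and the treated samples 63430, 83030 and 112500. That is a rise of 7.94 ± 0.52 (log2, SE, n = 3 pairs) or 246-fold (limma adjusted p = 1.19e-06). The untreated sample of date 3 was the highest of the untreated samples, and the groups were far apart on every date. Its near-identical neighbour Ifit3b, whose probe may also detect Ifit3, went from 98.4, 66.3 and 427 to 30790, 50580 and 60500, a rise of 8.34 ± 0.51 (adjusted p = 7.7e-07). Ifit1, which binds viral RNA with foreign caps, went from 188, 171 and 692 to 26830, 44160 and 48610, or 137-fold (7.10 ± 0.42, adjusted p = 7.48e-07). Date 3 again had the highest untreated and the highest treated value in these 2 genes.

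Rsad2 (viperin), a radical SAM enzyme that makes a chain-terminating nucleotide, had untreated values of 50.6, 53.1 and 134 and treated values of 5760, 34060 and 25840. The rise was 7.92 ± 0.70, with date 1 the lowest of the treated samples by a wide margin. Cmpk2, the nucleotide kinase encoded beside Rsad2, went from 104, 74.7 and 148 to 13690, 33310 and 20640 (7.66 ± 0.51, adjusted p = 1.46e-06), with the same order among the treated samples. Gbp5, a guanylate-binding protein that acts in inflammasome assembly and against intracellular pathogens, went from 29.6, 37.0 and 48.8 to 4945, 5853 and 5975 (7.21 ± 0.55). Usp18, the protease that strips Isg15 from proteins and blocks signalling at Ifnar2, went from 716, 457 and 1114 to 28890, 38770 and 39540, or 49.5-fold (5.63 ± 0.29, adjusted p = 5.77e-07). All of its treated samples lay above all untreated ones.

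**Figure D2:**
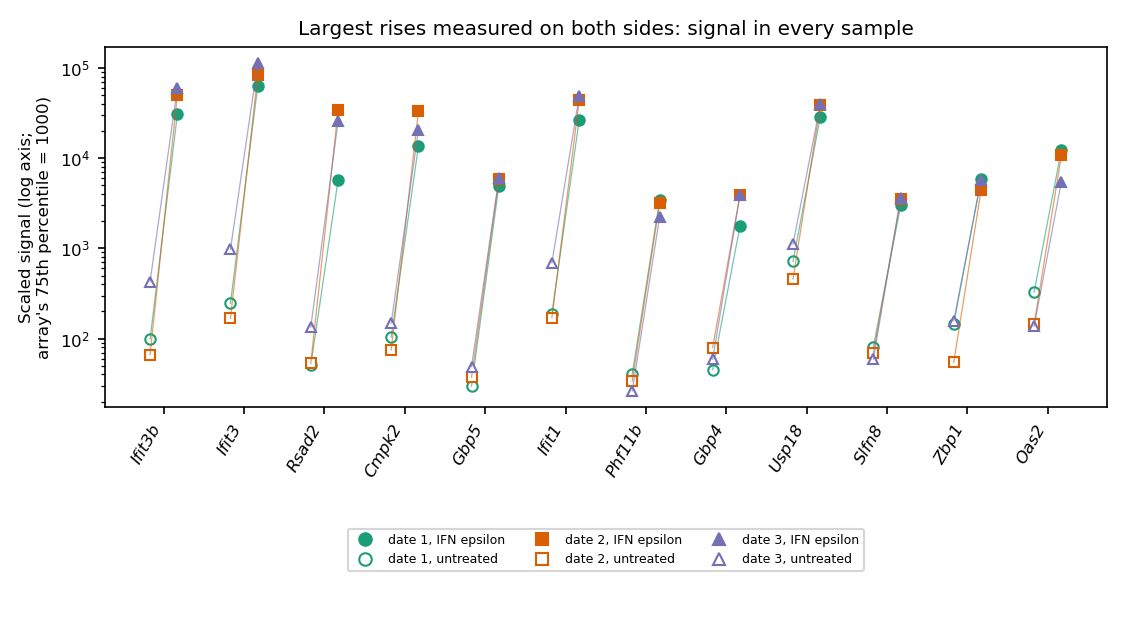
Scaled signal (y axis, log scale, 75th percentile of each array set to 1000) of the 12 largest rises measured on both sides, with untreated (open) and IFN epsilon-treated (filled) samples of the same date joined by a line. In all 12 genes every treated sample lies above every untreated one, and the untreated sample of date 3 is the highest for Ifit3b, Ifit3, Ifit1, Rsad2, Cmpk2, Gbp5, Usp18 and Zbp1.

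Some transcripts appeared from below detection. Of the 653 rises, 48 were not well above background on any of the 6 untreated arrays, so their rise has only a lower bound. Iigp1, an immunity-related GTPase that attacks parasite vacuoles, read 4.31, 6.78 and 17.1 in untreated and 6286, 10160 and 7385 in treated samples, a rise of at least 383-fold. Ifit1bl1, an Ifit1-like gene, read 7.01, 5.88 and 14.9 against 5547, 6414 and 5517, at least 286-fold higher. Tnfsf10, which encodes the death ligand TRAIL, read 8.60, 9.84 and 11.6 against 444, 1133 and 1451, at least 44.3-fold higher. The treated samples were well above background on all 3 arrays in each of these genes, and the lowest Tnfsf10 value among them was on date 1. The next largest bounds were at least 37.0-fold for the GTPase Gm4951, 16.8-fold for the apolipoprotein-like Apol10b, 10.8-fold for Gm7609, 7.09-fold for the transcription cofactor Lmo2 and 7.05-fold for Vmn1r49. The call of Vmn1r49 was lost without the untreated sample of date 3 and without the block (adjusted p = 0.0568).

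The promoters of the 6 largest rises with an entry in the RefSeq promoter table, and of the largest fall measured on both sides, are shown so that the presence and spacing of the interferon response motif can be read directly. Each line gives the 250 bases before the RefSeq gene start, 5′ to 3′ on the gene's strand, in build GRCm38.p6, and capitals mark matches to the ISRE core, searched as GAAA, any 2 bases and GAAA on both strands and here always found on the other strand, where it reads as TTTC, any 2 bases and TTTC, or to the GAS core, searched as TTCNNNGAA. Ifit3 lies at chr19:34583279-34583528, Ifit3b at chr19:34607707-34607956 and Ifit1 at chr19:34640639-34640888, all on the plus strand. Rsad2 lies at chr12:26456453-26456702 on the minus strand, Cmpk2 at chr12:26468965-26469214, Gbp5 at chr3:142496684-142496933 and Trem1 at chr17:48232489-48232738, the last 3 on the plus strand.
Ifit3: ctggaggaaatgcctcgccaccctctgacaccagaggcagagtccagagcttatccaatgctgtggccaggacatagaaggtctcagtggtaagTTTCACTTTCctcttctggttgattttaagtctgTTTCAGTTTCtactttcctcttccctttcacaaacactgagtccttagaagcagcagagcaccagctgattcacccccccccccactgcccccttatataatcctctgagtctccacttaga
Ifit3b: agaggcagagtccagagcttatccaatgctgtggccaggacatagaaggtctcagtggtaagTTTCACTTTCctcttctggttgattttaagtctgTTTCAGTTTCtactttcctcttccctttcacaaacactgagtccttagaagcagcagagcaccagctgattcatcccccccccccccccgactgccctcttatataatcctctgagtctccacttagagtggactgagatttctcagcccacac
Ifit1: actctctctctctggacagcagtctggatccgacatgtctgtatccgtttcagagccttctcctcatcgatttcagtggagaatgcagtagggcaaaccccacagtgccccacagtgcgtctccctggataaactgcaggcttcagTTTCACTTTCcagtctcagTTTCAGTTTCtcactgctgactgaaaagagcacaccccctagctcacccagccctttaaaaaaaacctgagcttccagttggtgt
Rsad2: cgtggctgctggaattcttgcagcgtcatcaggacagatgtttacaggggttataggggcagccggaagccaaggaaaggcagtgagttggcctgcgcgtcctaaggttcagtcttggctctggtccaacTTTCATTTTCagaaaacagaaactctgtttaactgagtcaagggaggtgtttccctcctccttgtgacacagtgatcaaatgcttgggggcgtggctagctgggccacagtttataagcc
Gbp5: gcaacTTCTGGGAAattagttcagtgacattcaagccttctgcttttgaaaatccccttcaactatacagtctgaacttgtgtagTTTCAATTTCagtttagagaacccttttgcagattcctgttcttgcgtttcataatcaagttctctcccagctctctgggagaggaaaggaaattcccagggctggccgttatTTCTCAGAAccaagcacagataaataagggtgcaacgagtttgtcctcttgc
Cmpk2: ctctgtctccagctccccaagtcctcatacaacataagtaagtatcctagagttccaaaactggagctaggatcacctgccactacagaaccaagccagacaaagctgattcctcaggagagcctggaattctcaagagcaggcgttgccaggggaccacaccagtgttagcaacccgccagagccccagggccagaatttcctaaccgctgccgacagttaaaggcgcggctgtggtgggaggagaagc
Trem1: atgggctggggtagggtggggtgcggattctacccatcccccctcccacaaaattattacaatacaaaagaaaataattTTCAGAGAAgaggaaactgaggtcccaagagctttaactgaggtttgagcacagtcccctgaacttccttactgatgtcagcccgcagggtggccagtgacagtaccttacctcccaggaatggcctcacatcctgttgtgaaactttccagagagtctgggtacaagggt

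Ifit3, Ifit3b and Ifit1 each held 2 ISRE matches, Rsad2 and Gbp5 held 1, and Gbp5 also held 2 GAS matches. No match to either motif was found in the Cmpk2 window, although Cmpk2 rose 202-fold. The Trem1 window held 1 GAS match and no ISRE match. Counted over windows of 300 bases (250 before to 50 after the start, both strands, with no exclusion of overlapping matches), the ISRE core occurred in 86 of 500 rises with a promoter entry (17.2%), in 343 of all 11421 tested genes with one (3.0%) and in 9 of 431 falls (2.09%). The share was 45.7% (37 of 81) in rises of at least 8-fold, 16.4% in rises of 2 to 8-fold and 7.08% in smaller rises. For the GAS motif the shares were 9.6% of rises, 7.02% of all and 4.64% of falls. Among all 27025 promoters of the table the ISRE core was found in 3.49% and the GAS core in 8.47%. Of the 112 ISRE matches in rises, 75 began within the 150 bases before the start.

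The counts of lists below are read against the 4.53% of tested genes that rose and the 3.58% that fell, and a median is the median log2 fold change of the tested members. The lists were drawn up with earlier results of these data known, so the counts describe the groups and add no independent evidence. A member not well above background on any untreated array passed the filter on dim probes only through treated groups, which favours a rise. All 6 members of the Ifit family tested rose, with a median of 7.52. Beside the bound for Ifit1bl1 they ranged from 8.34 for Ifit3b through 4.06 for Ifit2 to 0.60 for Ifit1bl2. Their median was 7.59, 8.48 and 6.49 in the pairs of dates 1, 2 and 3, and the untreated values of date 3 exceeded the mean of the other dates by a median of 1.58. Oas genes such as Oas2 and Oas3 encode enzymes that make a second messenger when they bind double-stranded RNA. Oas2 read 326, 144 and 137 in untreated and 12390, 10830 and 5512 in treated samples (5.60 ± 0.32). Oas3 rose by 5.51 ± 0.28 and the Oas-like gene Oasl1 by 4.49 ± 0.38. In Oas2 and Oas3 the treated sample of date 3 was the lowest of the treated samples.

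Of 7 tested genes of Isg15 conjugation, 6 rose (median 2.83) and only the ligase relative Herc3 (-0.04) was not called. Isg15, the ubiquitin-like modifier itself, already had a bright signal without interferon, at 10030, 5854 and 20080, and reached 131500, 145000 and 188300 with it. That is 14.5-fold (3.86 ± 0.24, adjusted p = 8.12e-07), with no overlap between groups and date 3 highest in both. Its ligase Herc6 went from 598, 416 and 519 to 7057, 6729 and 6875 (13.6-fold), and the activating and conjugating enzymes Uba7 and Ube2l6 rose by 2.83 and 2.44. Of 38 antiviral restriction factors 31 were tested and 27 rose (median 2.24). After Rsad2 and Cmpk2 the largest was Phf11b, which went from 40.6, 33.8 and 26.3 to 3414, 3156 and 2217 (87.3-fold). At the other end Apobec3 (1.01) and Mov10 (1.18) rose about 2-fold, and Ifitm1 (0.36), Sp110 (0.25), Ifi27 (-0.01) and Ifi30 (-0.22) were not called.

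Among the sensors of RNA, 6 of 15 tested members rose and 1 fell, around a median of 0.40. The rises were led by the receptors: Tlr3, which detects double-stranded RNA in endosomes, went from 23.2, 26.7 and 27.3 to 645, 484 and 749 (24.0-fold), the helicase Dhx58 rose 23.7-fold and Ifih1, which encodes MDA5, rose 10.9-fold. The adaptor Mavs (-0.16) and the kinases Tbk1 (0.40) and Ikbke (0.40) were not called, and the adaptor Traf3 fell by 0.50 ± 0.08 (adjusted p = 0.00181) with values of 6589, 5844 and 8433 in untreated and 4821, 3898 and 6169 in treated samples. The 2 groups overlapped for Traf3 while each date showed a fall, and without the block the adjusted p was 0.461. Of 20 DNA sensing and Ifi200 genes 12 were tested and 9 rose (median 2.63, or 2.07 with genes below background at their bound). Zbp1, a sensor of Z-form nucleic acid that can start necroptosis, went from 146, 54.5 and 157 to 5851, 4397 and 5662 (48.9-fold). Mndal rose 15.4-fold and Ifi209 at least 3.02-fold, while the adaptor Sting1 (0.37) was not called.

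Stat2, a transcription factor of the pathway, went from 4243, 3487 and 4031 to 23040, 35440 and 30850 (2.91 ± 0.23) with no overlap between groups. The receptor subunits Ifnar1 (-0.10 ± 0.10, adjusted p = 0.601) and Ifnar2 (0.09 ± 0.08, adjusted p = 0.569, and -0.33 under median scaling) were not called. Of 12 interferon regulatory and Batf factors 5 rose (median 0.52). Batf2 went from 87.0, 68.1 and 13.9 to 1718, 2802 and 1627 (5.51 ± 0.77), although only 4 of 6 untreated arrays measured it above background. Irf7, the master factor for further interferon production, went from 6655, 3911 and 10370 to 91020, 96430 and 101300 (14.9-fold), and Irf9, the DNA-binding part of the ISRE-binding complex, from 4224, 2841 and 5404 to 11820, 13310 and 12570 (3.12-fold). Irf5 and Irf2 also rose, and Irf3 (-0.16) was not called.

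Of 24 negative regulators 6 rose (median 0.00). Besides Usp18 these included Trim30a, which went from 62.2, 79.6 and 66.0 to 4509, 3388 and 2092 (46.1-fold), and Socs1, a Jak inhibitor. Socs1 read 234, 233 and 320 in untreated and 571, 1942 and 2495 in treated samples, a rise of 2.44 ± 0.50 (adjusted p = 0.0105) in which date 1 gave the smallest step. That call was lost without the treated sample of date 2, without the untreated sample of date 3 and without the block (adjusted p = 0.186). The other members of the Socs, Pias and Ptpn families on the list were not called, with fold changes between -0.26 for Pias2 and 0.06 for Socs2.

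Antigen presentation on MHC class I rose broadly but by smaller factors. Of 18 class I genes tested 14 rose (median 1.25), led by Nlrc5, the transactivator of class I genes, which went from 103, 138 and 70.9 to 2839, 4257 and 2522 (31.2-fold). H2-T22, a non-classical heavy chain, rose 4.79-fold, and the classical heavy chain H2-K1 went from 34970, 44270 and 21830 to 82010, 77150 and 56720 (2.20-fold, adjusted p = 0.00201). B2m, the light chain, read 35390, 41450 and 33870 against 64710, 64070 and 69300, a rise of 1.79-fold with no overlap between groups (0.84 ± 0.12). Heavy chain genes are near copies of each other, so a probe may detect several of them. The count of class I rises was 12 without the treated sample of date 1, 10 without the untreated sample of date 3 and 13 without the block. Of 15 immunoproteasome and peptide loading genes 8 rose (median 0.85). The transporter subunit Tap1 went from 678, 712 and 624 to 9878, 10990 and 10170 (15.4-fold), and the inducible proteasome subunits Psmb9 and Psmb8 rose 14.4-fold and 7.3-fold. The chaperones Calr (-0.16) and Canx (-0.05) were not called.

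By contrast 0 of 31 subunits of the constitutive proteasome were called in either direction by limma (median -0.07, from -0.16 to 0.09). The smallest adjusted p among them was that of Psmb1, at 0.166. Of 11 tested genes of the class II pathway 3 rose (median 0.31, or 0.22 with bounds). The class II transactivator Ciita read 7.87, 12.4 and 10.2 against 100, 430 and 209 by a probe that was above background on 0 of 6 untreated and 3 of 3 treated arrays, so no size is given for its rise. Counting any probe of Ciita, 5 of 6 untreated arrays were above background, so the gene was not silent in untreated cells. Both of its 2 probes were higher with IFN epsilon and 1 was called. The call of the gene was lost without the block (limma adjusted p = 0.0716). The protease Ctss rose at least 1.16-fold by its bound and Rfx5 rose 1.99-fold, and class II molecules themselves, such as H2-Ab1 (0.71) and Cd74 (0.15), were not called. The number of class II genes that rose was 2 without the untreated sample of date 2 and 1 without that of date 3.

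Nearly all interferon-inducible GTPases rose. All 9 guanylate-binding proteins tested of 11 rose (median 5.32), from 7.21 for Gbp5 to 2.47 for Gbp8. Gbp2 went from 884, 1326 and 1466 to 45680, 55430 and 54640 (43.2-fold), and Gbp4 from 45.2, 79.3 and 58.9 to 1754, 3909 and 3865 (5.64 on the log2 scale), with date 1 lowest among treated samples in both. Gbp7 rose 45.5-fold from 133, 149 and 163 to 7832, 7237 and 5347. Of 15 immunity-related GTPases 13 were tested and 12 rose (median 4.50), and F830016B08Rik (0.51) was not called. Of the 13, 3 were not well above background on any untreated array and so were tested only through treated groups. Gm12250, another member, read 11.5, 8.04 and 10.8 against 928, 1376 and 1147, with 1 of 6 untreated arrays above background (6.83 ± 0.76). Family members share long stretches of sequence, so their probes may not be fully separate.

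Of 35 chemokines 18 were tested and 5 rose (median 0.13). Cxcl10, which draws T cells and NK cells through the receptor Cxcr3, went from 2845, 1718 and 4799 to 73140, 88300 and 109300 (31.1-fold, 4.96 ± 0.42, adjusted p = 1.04e-05). Cxcl9, a ligand of the same receptor, was below background in untreated cells and at 64.4, 87.8 and 68.9 in treated ones, at least 3.6-fold higher. Ccl7 rose 2.43-fold with overlapping groups, and Ccl5 (0.80) and Ccl2 (0.68) rose less. Leaving out a treated sample of date 1 or 2 left 2 chemokine rises, and leaving out the untreated sample of date 2 or 3 left 3 or 1. Without the block the list had 2.

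Of 36 tested cytokines and receptors 9 rose (median 0.03, or 0.01 with bounds). Il18bp, the decoy for Il18, went from 233, 230 and 159 to 1550, 1351 and 1099 (6.47-fold). Il6 went from 35.8, 31.6 and 176 to 146, 295 and 1035 (6.07-fold). Its untreated value on date 3 exceeded the treated value of date 1, so the groups overlapped, and without the block the adjusted p was 0.629. Il7 was below background on all untreated arrays and above it on 2 of 3 treated arrays, with a bound of at least 1.82-fold, and Il15, which sustains NK and memory T cells, rose by 2.49. The interferon gene Ifnb1 was above background on 0 of 6 untreated and 2 of 3 treated arrays and was not called (adjusted p = 0.0736). The cytokine count was 5 without the treated sample of date 1 or of date 2, 6 without the untreated sample of date 2, 4 without that of date 3 and 4 without the block.

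Of 24 tested checkpoint and immune ligands 8 rose and 1 fell (median 0.19, or 0.10 with bounds). Cd274, which encodes PD-L1, read 101, 89.6 and 103 in untreated and 1136, 5439 and 8678 in treated samples. The rise was 38.7-fold (5.28 ± 0.82, adjusted p = 0.0019), but it ranged from 3.50 on date 1 to 6.40 on date 3, among the 5 widest ranges of any gene that rose. Sectm1a rose at least 2.71-fold and Sectm1b 5.29-fold, the lectin Lgals9 rose by 1.68, and the adhesion ligand Pvr fell by 0.23 ± 0.06 with overlapping groups. The count of rises was 5 without the treated sample of date 1 or 2 and 4 without the untreated sample of date 3, it was 5 without the block, and the Pvr call was lost without any of 5 samples. Of 8 tested Ly6 surface proteins 4 rose (median 0.92), led by Ly6a (Sca-1), which went from 20.4, 25.4 and 26.5 to 369, 271 and 477 (15.1-fold).

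Of 35 tested genes of TRAIL, death receptors and apoptosis 9 rose and 3 fell (median 0.03). Beside Tnfsf10, the Fas-binding adaptor and histone chaperone Daxx went from 11070, 10250 and 11530 to 40880, 67900 and 67410 (5.23-fold), and the death receptor Fas from 1242, 1061 and 767 to 2000, 2883 and 1692 (2.13-fold). The falls were the survival factor Bcl2 (1073, 1259 and 1051 to 755, 983 and 723, a fall of 0.47 ± 0.09), the TRAIL receptor Tnfrsf10b (2023, 1994 and 2639 to 1600, 1604 and 2145, a fall of 0.32 ± 0.05) and the Bcl2 antagonist Pmaip1 (a fall of 0.27 ± 0.08). The count of rises was between 3 (without the untreated sample of date 3) and 7, at 5 without the treated sample of date 1 and 6 without that of date 2 or the untreated sample of date 1 or 2, and the Pmaip1 call was lost without any of the 6 samples. Without the block 3 genes of this list rose and 0 fell. Of 15 pyroptosis and necroptosis genes 7 rose (median 0.50), including Zbp1 and the neighbouring inflammatory caspase genes Casp4 (4.08-fold) and Casp1 (3.08-fold).

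Of 14 interferon-inducible Trim ubiquitin ligases 12 rose (median 2.88). Trim30d, a near copy of Trim30a, went from 53.1, 67.6 and 60.2 to 3634, 2733 and 1837 (43.9-fold), and Trim14 rose 14.5-fold. All 6 Schlafen genes tested of 10 rose (median 3.57), led by Slfn8, which went from 80.7, 68.5 and 59.4 to 3011, 3544 and 3660 (49.2-fold). Of these 6, 2 were not well above background on any untreated array and so were tested only through treated groups. In the Parp family 9 of 15 rose (median 1.1), with the mono-ADP-ribosyltransferase Parp14 at 503, 452 and 558 against 12840, 21230 and 20820 (35.5-fold), and Parp1 (-0.25) and Parp2 (0.03), the enzymes of DNA repair, were not called. Of 12 genes of the PML nuclear body 4 rose (Sp140, Daxx, Sp100 and Pml, median of the list 0.09), whereas the Sumo genes were not called.

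Metabolic interferon genes rose in 16 of 24 cases (median 1.03). The count was 12 without the treated sample of date 1 or 2 or the untreated sample of date 2. It was 11 without the untreated sample of date 3 and 11 without the block. Beyond Rsad2 and Cmpk2 the torsin relative Tor3a went from 1364, 1413 and 1713 to 23970, 35940 and 42580 (22.3-fold), and Acod1, which makes itaconate, and Ch25h, which makes 25-hydroxycholesterol, rose by 3.69 and 1.31. Of 27 NF-kB targets 5 rose (median 0.01): the complement factor Cfb (8.69-fold), Nos2 (4.77-fold), Vcam1 (1.95-fold), Nfkbie and Csf1. The feedback inhibitors Nfkbia (0.04) and Tnfaip3 (-0.10) were not called, and the count was 2 without the treated sample of date 1 or the untreated sample of date 3, and 3 without the treated or untreated sample of date 2 and without the block. Of 15 complement genes 5 rose and Cd59a fell (median 0.33). C4b rose 5.31-fold from 135, 126 and 198 to 834, 820 and 739, and C4a, of nearly the same sequence, at least 3.03-fold. The Cd59a call was lost without any of the 6 samples, and the change was 0.01 when the probes of the gene were averaged.

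**Figure D3:**
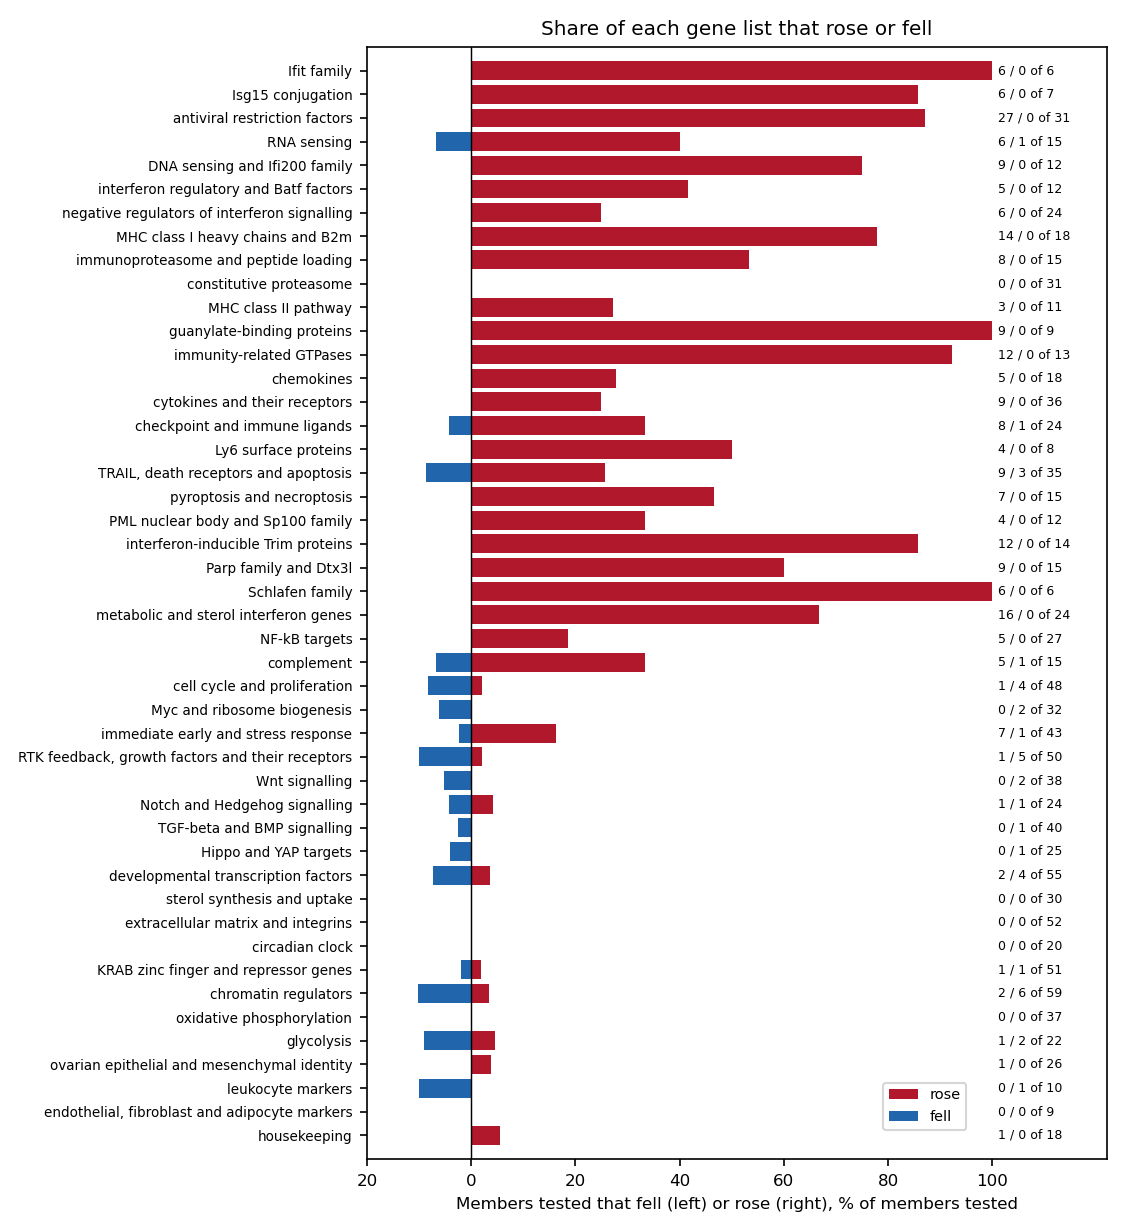
Share of tested members that rose (red, to the right) or fell (blue, to the left) in each gene list shown, in % of members tested, with counts of rose and fell of tested at the right edge. The Ifit, guanylate-binding and Schlafen lists stand at 100% rises, whereas no list has more than 10.2% falls. Of these members, 1 Ifit and 2 Schlafen genes were not well above background on any untreated array.

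Some genes that rose were neighbours. Counting only tested genes in RefSeq order, 24 runs of at least 3 adjacent rises held 114 of the 653 rises, against 3 runs of at least 3 falls. The longest runs had 9 genes: the H2-T region on chromosome 17, and Fas, Ch25h, Lipa, Ifit2, Ifit3, Ifit1bl1, Ifit3b, Ifit1bl2 and Ifit1 on chromosome 19, where the changes other than that of Ifit1bl1, which has only a bound, ranged from 0.60 to 8.34. Runs of 8 covered the Oas genes on chromosome 5, the Trim genes from Trim6 to Trim30d on chromosome 7 and the GTPase genes from Irgm1 to Ifi47 on chromosome 11. The run Insl6, Plgrkt and Cd274 on chromosome 19 also counted among the 24. Many runs consist of gene copies whose probes may share targets.

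The largest fall measured on both sides was in Trem1, a receptor of myeloid cells that amplifies inflammatory signalling. Trem1 read 957, 1210 and 1064 in untreated and 456, 467 and 546 in treated samples, a fall of 2.20-fold (-1.14 ± 0.17, adjusted p = 0.00176). All 3 treated samples lay below all untreated ones, and the call held without the block (adjusted p = 0.00316). Of the leukocyte markers tested beside it none was called, and their part in this fall was not tested. Nrarp, a feedback inhibitor of Notch signalling, fell by 1.28 ± 0.28, but it was above background on only 1 of 3 treated arrays, its groups overlapped, and its call was lost without the treated sample of date 2, the untreated sample of date 3 or the block.

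Map3k9 and Dnmt3a had the narrowest ranges over dates of the 15 largest falls. Dnmt3a, the de novo DNA methyltransferase, read 3273, 3464 and 3235 in untreated and 2080, 2034 and 1849 in treated samples, 1.67-fold lower (-0.74 ± 0.09, adjusted p = 0.000194). Map3k9, a kinase upstream of Jnk, read 686, 640 and 629 against 428, 385 and 373, 1.65-fold lower (adjusted p = 0.000628), again with no overlap. Zc3hav1l, a relative of the antiviral zinc finger protein Zc3hav1, read 589, 671 and 840 against 356, 370 and 455 (1.77-fold lower), and the pseudokinase Trib2 read 1505, 1789 and 1219 against 978, 977 and 635 (1.75-fold lower). For these 4 genes the treated samples were all below the untreated ones. Without the block the call of Trib2 was lost (limma adjusted p = 0.424), and those of Dnmt3a, Map3k9 and Zc3hav1l held.

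In other large falls the dates differed more. Srgap1, which encodes a GTPase-activating protein, read 2750, 4697 and 3830 against 1086, 2982 and 2541, so the groups overlapped, and the fall of 0.86 ± 0.19 was lost without the treated or untreated sample of date 1 and without the untreated sample of date 3. Within slides the Srgap1 difference was -0.35, -0.12 and -2.11. Zfp799 (1.85-fold lower), Fam199x (1.73-fold), Cyren (1.72-fold), Grasp (1.71-fold), Fzd9 (1.69-fold), Mtss2 (1.68-fold) and the chromatin remodeller Chd7 (1.63-fold) had no overlap between groups, whereas Rufy4 (1.80-fold) and the transcription factor Bhlha15 (1.74-fold) did. Without the block Zfp799, Cyren, Chd7 and Mtss2 lost their calls despite the lack of overlap (limma adjusted p = 0.709, 0.422, 0.365 and 0.166). Srgap1, Rufy4 and Bhlha15 also lost theirs, whereas Fam199x, Grasp and Fzd9 kept them. The calls of Rufy4, Fzd9 and Mtss2 were each lost in 4 of the 6 fits that left out a sample.

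**Figure D4:**
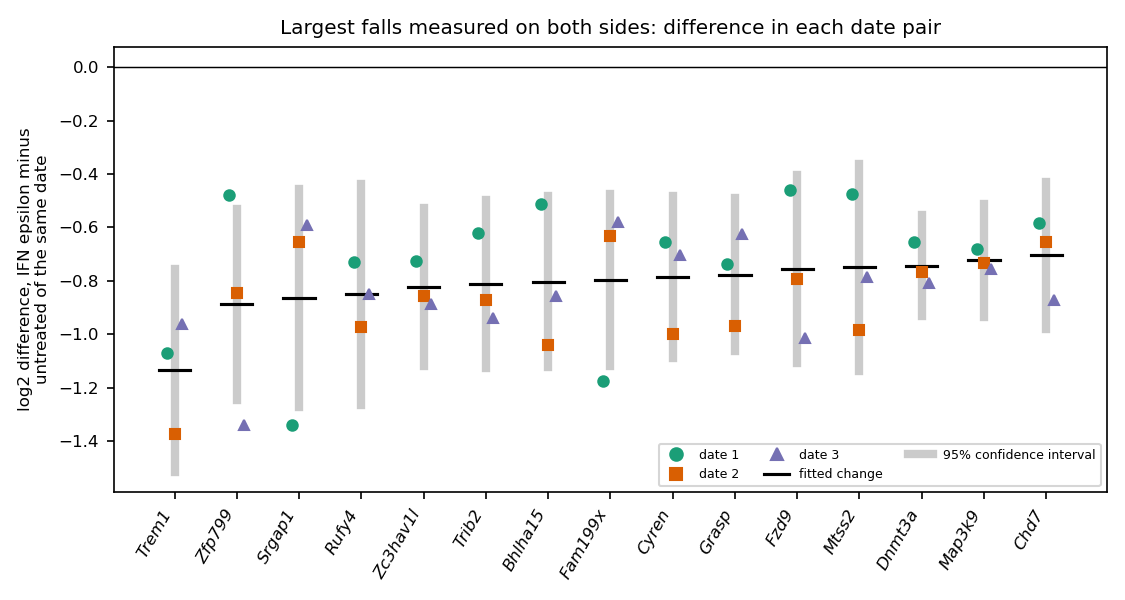
Log2 difference between the treated and the untreated sample of each date (y axis; symbols by date) for the 15 largest falls measured on both sides, with the fitted change (black line) and its 95% confidence interval (grey). All 45 differences are below 0, from -1.37 in Trem1 on date 2 to -0.46 in Fzd9 on date 1, and Dnmt3a and Map3k9 have the narrowest spread of the 3 dates.

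The number of falls changed by over 1.5 times with the samples and groups in the fit. It was 145, 243 and 327 without the treated sample of date 1, 2 or 3, and 263, 147 and 102 without the untreated sample of date 1, 2 or 3, against 517 with all. Fitted on the treated and untreated samples alone it was 16. Of the 517 falls, 74 stayed called in all 6 fits that left out a sample, against 375 of the 653 rises, and Dnmt3a was the only fall that stayed called under all 23 alternatives, against 87 rises.

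By function the falls were spread thinly. Among 59 chromatin regulators 6 fell and 2 rose (median -0.06): besides Dnmt3a and Chd7 the falls were the Polycomb proteins Cbx7 (1.83-fold, above background on 2 of 3 treated arrays) and Cbx2 (-0.54), the demethylase Kdm2b (-0.40) and the methyltransferase Setd1a (-0.29). The rises, the acetyltransferase Kat2b (0.97) and the dioxygenase Tet2 (0.58), lost their call without any of the 6 samples, and 2 of the falls were called without the block. Of 50 receptor tyrosine kinase feedback genes, growth factors and receptors 5 fell and 1 rose (median -0.12). The growth factor Pdgfb read 10580, 12800 and 17540 against 9485, 8060 and 11590 (a fall of 0.47 ± 0.12), the phosphatase Dusp4 fell by 0.47 ± 0.13 and the insulin receptor substrate Irs1 by 0.36 ± 0.09. The list had 2 falls without the treated sample of date 2, 1 without the treated sample of date 1 or 3 or the untreated sample of date 1, and 0 without the untreated sample of date 2 or 3.

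Of 48 cell cycle genes 4 fell and 1 rose (median -0.09). The phosphatase Cdc25b read 1348, 1135 and 1614 against 1024, 748 and 1062 (1.45-fold lower), the mitotic activator Cdc20 was 1.26-fold lower and Birc5 1.17-fold lower, and Gmnn fell by 0.22. The replicative helicase subunit Mcm6 rose 1.22-fold, a change that turned to -0.13 under median scaling, and its call was lost without any of the 6 samples and without the block (adjusted p = 0.97). Without the treated sample of date 2 or the untreated sample of date 2 or 3 the count of falls was 1, and it was 2 without the treated sample of date 1 or 3. Mki67 (-0.15), Pcna (-0.08) and Ccnd1 (-0.10) were not called. Of 32 genes of Myc and ribosome biogenesis 2 fell, the nucleolar GTPase Gnl3 (1.30-fold) and Tsr1 (1.16-fold), and Myc (0.21) was not called. That list had 1 fall without the treated sample of date 2 and 0 without the treated sample of date 1 or 3 or the untreated sample of date 2 or 3. None of these cell cycle, growth or ribosome falls was called without the block.

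Immediate early and stress genes rose in 7 of 43 cases and fell in 1 (median 0.04). Klf4 read 10170, 9199 and 10250 against 14940, 20000 and 20510 (1.86-fold), Gadd45g rose 1.77-fold and Klf2 1.54-fold, and Egr1 fell by 0.40 ± 0.11, a call lost without any of the 6 samples. The number of rises lay between 2 and 5 when a sample was left out, at 2 without the untreated sample of date 2 or 3, 3 without the treated sample of date 2 or 3 and 4 without that of date 1, and it was 0 without the block. Of 55 developmental transcription factors 2 rose and 4 fell (median -0.06). Foxf1, a forkhead factor of mesenchyme, went from 115, 99.9 and 89.0 to 523, 685 and 858 (6.70-fold, adjusted p = 0.000368) with no overlap, whereas its relatives Foxf2 (-0.40) and Foxd1 (-0.47) and the homeobox gene Hoxa3 (-0.37) fell slightly, with Sox12 (-0.29) the other fall. Snai2 rose 1.26-fold, or -0.08 on the log2 scale under median scaling. This list had 0 falls without the treated sample of date 1, 1 without the treated or untreated sample of date 2 or the untreated sample of date 3, 2 without the untreated sample of date 1 and 0 without the block. It had 1 rise without any of the samples other than the treated one of date 1.

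In the remaining signalling lists, Fzd9 and Znrf3 were the only falls among 38 Wnt genes (median -0.10), Dll1 rose (4.40-fold) and Nrarp fell among 24 Notch and Hedgehog genes (median -0.11), Id2 fell among 40 TGF-beta and BMP genes (median -0.11) and Frmd6 among 25 Hippo and YAP targets (median -0.07). The calls of Dll1 and Id2 were lost without any of the 6 samples and without the block, and that of Frmd6 without the treated sample of date 1, the untreated sample of date 3 or the block (adjusted p = 0.157). The Wnt list had 0 falls without the treated sample of date 1 or the untreated sample of date 2 or 3. Among 51 KRAB zinc finger and repressor genes Zfp458 rose and Zfp568 fell (median 0.02). The call of Zfp458 was lost without any of the 6 samples, that of Zfp568 without any but the untreated sample of date 1, and both without the block. Of 22 glycolysis genes Hk2 rose 1.57-fold and Eno2 and Slc16a3 fell 1.43-fold and 1.27-fold (median -0.06). The Slc16a3 call was lost without any sample but the treated one of date 2, the Hk2 call without the untreated sample of date 3, and both falls without the block. By limma, 0 genes were called among 30 of sterol synthesis and uptake (smallest adjusted p 0.0847, Msmo1), 52 of extracellular matrix and integrins (0.0541, Fbn1), 20 of the circadian clock (0.0891, Per3) and 37 of oxidative phosphorylation (0.147, Cox5a). Among 26 genes of ovarian epithelial and mesenchymal identity only Aldh1a2, which makes retinoic acid, was called. It read 1915, 1436 and 536 against 5566, 5614 and 1750 (3.34-fold), lower on date 3 in both groups, which therefore overlapped, and it was not called without the block. Among 9 endothelial, fibroblast and adipocyte markers none was called, the smallest adjusted p being that of Col1a2 at 0.264, and of 18 housekeeping genes only B2m was called. Actb read 247000, 218600 and 300900 against 216100, 229400 and 312500 (-0.02 ± 0.07).

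Against IFN beta at the same 1000 IU/ml, 0 of 14425 genes differed at an adjusted p under 0.05 by limma, while 499 were higher with IFN epsilon and 333 lower at an unadjusted p under 0.05. At that unadjusted threshold 721 genes, both directions together, are expected if no gene differs. The smallest adjusted p was 0.0586, and the median half-width of the 95% confidence interval of a difference was 0.24. The intervals leave room for differences of some size: Ifit1 differed by 0.28 (interval -0.64 to 1.20), Isg15 by 0.12 (-0.40 to 0.63), Gbp2 by 0.89 (-0.05 to 1.84), Iigp1 by 1.48 (-0.18 to 3.13) and B2m by 0.00 (-0.26 to 0.26). Over the Ifit, guanylate-binding, immunity-related GTPase and Schlafen lists all 6, 9, 13 and 6 tested members had a higher mean with IFN epsilon than with IFN beta, with median differences of 0.62, 0.64, 0.39 and 0.44, none of them called. So did 606 of all 653 rises (median difference 0.23), beside a median of -0.01 over all genes tested. The rises were chosen with IFN epsilon, which favours that side. List members share the same samples, so they are not separate evidence. Trem1 was 0.43 lower with IFN epsilon (interval -0.81 to -0.05, adjusted p = 0.822) and Dnmt3a 0.26 lower (-0.45 to -0.07). The number called was 32 without the IFN beta sample of date 3, 7 and 4 without the IFN epsilon sample of date 1 or 2, and 32 under median scaling.

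Against IFN epsilon at 100 IU/ml, 3 genes were higher at 1000 IU/ml (0.0208%) and 0 lower, with 1152 higher and 575 lower at an unadjusted p under 0.05. Here too 721 genes, both directions together, are expected at that threshold if no gene differs. The 3 were Angptl8, a secreted regulator of lipoprotein lipase (0.79 ± 0.10, adjusted p = 0.0385), the monocarboxylate transporter relative Slc16a9 (0.72 ± 0.09, adjusted p = 0.0385) and Tex19.1 (0.50 ± 0.07, adjusted p = 0.0469). Angptl8 read 183, 146 and 142 in untreated and 310, 279 and 334 in cells with 1000 IU/ml, while its change from untreated was 0.18 at 10 IU/ml, 0.19 at 100 IU/ml and 0.25 with IFN beta, none of them called. Slc16a9 and Tex19.1 overlapped between treated and untreated samples, and the Tex19.1 change against untreated was -0.02 under median scaling. The 3 calls went to 0 without the IFN epsilon 1000 IU/ml sample of date 3, without the 100 IU/ml sample of date 1 or of date 2 and without the block, to 5 without the 1000 IU/ml sample of date 1 or 2, and to 82 under median scaling.

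Against the same untreated samples, 72 genes rose (0.499%) and 0 fell at 10 IU/ml, 213 rose (1.48%) and 21 fell (0.146%) at 100 IU/ml, and 403 rose (2.79%) and 94 fell (0.652%) with IFN beta at 1000 IU/ml. The 653 rises had medians of 0.19 at 10 IU/ml, 0.70 at 100 IU/ml, 1.23 at 1000 IU/ml and 0.98 with IFN beta, and the 517 falls medians of -0.08, -0.20, -0.36 and -0.24. These genes were chosen at 1000 IU/ml of IFN epsilon and all comparisons share the untreated samples, so the values are given side by side only. For the Ifit family the medians were 3.47, 6.58 and 7.52 at the 3 doses and 7.06 with IFN beta, and for guanylate-binding proteins 1.30, 3.90, 5.32 and 4.54. Usp18 stood at 3.51, 5.17, 5.63 and 5.40. Cd274 stood at 0.86, 3.34, 5.28 and 4.90.

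**Figure D5:**
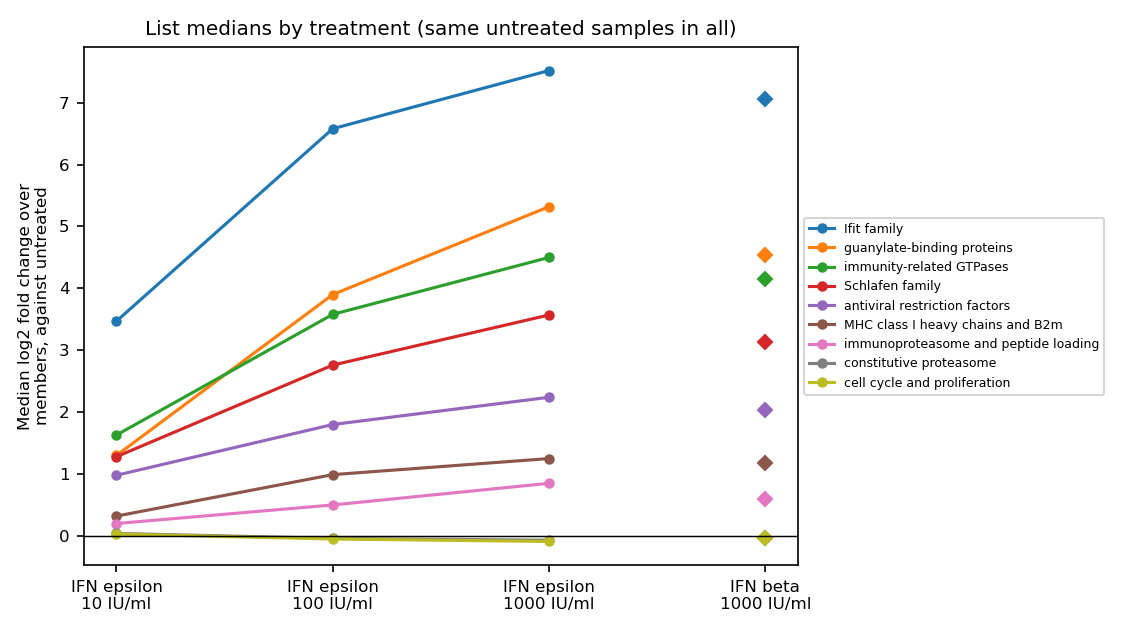
Median log2 fold change against untreated (y axis) over the tested members of 9 lists, for IFN epsilon at 10, 100 and 1000 IU/ml (joined circles) and IFN beta at 1000 IU/ml (diamonds), all set against the same untreated samples. The Ifit median is 3.47, 6.58 and 7.52 at the 3 doses, whereas the constitutive proteasome and cell cycle medians stay near 0.

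Responses differed between dates in a way that depended on the gene. The median over the 653 rises was 1.1, 1.26 and 1.34 on dates 1 to 3, and over the 517 falls -0.38, -0.36 and -0.34. Each slide held 1 treated and 2 untreated arrays. On slide 1 an untreated array shared date 3 with the treated one, whereas on slides 2 and 3 no untreated array shared the treated array's date. Differences within slides are thus mostly differences between dates. Within slides 1 to 3 the rises had medians of 1.24, 1.34 and 1.11 and the falls -0.27, -0.38 and -0.41. With the slide as a further block in a fit of single arrays, the sample as a random block, fold changes were unchanged by construction, since both groups hold the slides in equal parts, and 928 genes rose and 1391 fell. The 5 rises with the widest range over dates were Misp, Sftpd, 9030619P08Rik, Txndc8 and Cd274. Misp, an actin-binding protein of mitosis, read 29.9, 8.32 and 9.39 in untreated and 301, 455 and 929 in treated samples. Sftpd, 9030619P08Rik and Txndc8 were each below background on all untreated arrays and above it on 2 of 3 treated arrays, and the treated sample of date 3, the array with the raised dim signal, gave the highest value in all 3 (79.7, 193 and 41.1). The part of that array in these values was not tested, and without it 602 genes rose and 327 fell.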

How the data were processed

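RNA of 7 groups of ID8 cells was measured on single-colour Agilent arrays (3 slides), and 22 of 24 arrays were used, since the labels mark 2 IFN beta arrays as excluded. The deposited scanner files give each spot an intensity from which the software (Agilent Feature Extraction, release 11.0.1.1 in the headers) had subtracted background, with no normalization between arrays. The authors also deposited a table of log2 values, used as an alternative. Per the submitters' processing notes, limma 3.42.0 and R 3.6.1 were among the tools. How it was normalized was not stated, its columns had medians of 5.52 to 5.54 and correlated at 0.989 to 0.995 with the log2 scanner signal of that array, and whether background was treated stays unknown.

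From the scanner files, control spots and 79 to 280 outlier spots per array were left out (0 were saturated), each array was scaled to its 75th percentile on the log2 scale of processed signal, and the 2 arrays of an untreated sample were averaged. RefSeq accessions (table of build GRCm38.p6, names and gene order only) named 32994 of 56605 probes, for 22911 genes; the brightest probe stood for a gene, and 14425 genes were tested whose probe was well above background in 2 or more samples of some group. Mx1 and other genes without a named probe were not analysed here, and a few genes and the lists that turn on them are not reported here. Of 453 called genes with several probes, 390 had all probes of the same sign and 0 had called probes in opposite directions. Where a group had 0 arrays above background, a fold is given as a bound against the dimmest probes that were above it.

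limma 3.58.1 in R 4.3.3 (lmFit, eBayes; 10 residual degrees of freedom) fitted all 7 groups, blocked by replicate number. The design text gives the dates, and the deviations of same-numbered untreated and treated samples correlated at 0.52, 0.39 and 0.57, against at most 0.21 across numbers. On simulated data with 14394 genes built for this comparison, changes of -0.5, 0.5, -1 and 2 (log2) were recovered in 50%, 40%, 74% and 94% of 50 genes each, with 7 calls among the genes left unchanged. The simulated noise was independent between genes and samples. It held no array-wide shift like that of the treated array of date 3, so the 7 calls do not measure errors from such shifts. Named genes were the 12 largest rises, 8 largest bounds and 15 largest falls, the 3 largest called changes of each list in each direction (or its smallest adjusted p), a panel of signalling and control genes, the direct-comparison calls and the 5 widest ranges; other members are named as examples chosen after their values were seen. The members, lists and rules were chosen with earlier results of these data known. Tables were read with data.table (version 1.17.8), and statmod 1.5.0, Python 3.11.15, pandas 2.3.3, numpy 2.4.6 and matplotlib 3.10.9 were used.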

Additional observations from a re-analysis of the deposited data

Results flagged for a closer look

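Probes without a gene name stand outside the gene comparison. Of 10036 such probes that passed the filter, 238 rose and 108 fell by limma at an adjusted p under 0.05, the largest by 9.31 on the log2 scale. Both are smaller shares than the 4.53% of tested genes that rose and the 3.58% that fell, and most of these probes were not called. The 238 were listed because they hold a signal above that of the untreated samples in data that no gene result uses.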

How the results depend on the processing

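Of 23 alternatives, 18 kept the number of rises within 1.5 times of 653 and 11 did so for the 517 falls. Rises moved to 323 without the replicate block, 359 with only the 2 groups in the fit, 296 under median scaling, and 305 over the 7212 brighter genes (an alternative chosen after the data were seen, like cyclic loess and the median of detected probes). Falls moved to 10, 16 and 44 under the first 3 of these, to 181 with no filter on dim probes, 267 with cyclic loess and 1391 with the slide as a block. Leaving out 1 sample gave 387 to 602 rises and 102 to 327 falls. Against IFN beta the count of 0 became 1 with all 24 arrays, quantile normalization, the deposited log2 values, a stricter filter and only the first untreated array, 32 under median scaling, and 0 to 32 with a sample left out. Against 100 IU/ml the count of 3 became 0 without the block, with only the 2 groups, with no filter and with an intensity trend, 1 with quantile normalization and with the deposited values, 21 with normexp and 82 under median scaling, and 0 to 5 with a sample left out. The replicate block is the pairing by date, and it was the main fit. The sign changed for Cd59a (0.01, mean over probes) and for Actb (0.02 with only the second untreated array, -0.05 to 0.03 with a sample left out). Under median scaling it changed for Mcm6 (-0.13), Snai2 (-0.08), Col1a2 (-0.19), Ifnar2 (-0.33) and Tex19.1 (-0.02). That scaling lowers every gene by the same amount (median of all genes -0.467 against -0.052), so the direction of these small changes depended on the scaling. The cause of the changes in Cd59a and Actb was not tested. Since the files hold no mean signal, normexp used the median signal and background. The median distance from an estimate to its interval's bound was 0.24, and genes below background in a group have only bounds.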
